A study of Mus musculus with 2 samples.

Results

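Bcl3 and the NF-kappaB family were examined in primordial germ cells (PGCs), the embryonic precursors of eggs and sperm, in which Klf9 was over-expressed (OE). The members were fixed by name as 10 genes. They are Bcl3, the subunit genes Nfkb1, Nfkb2, Rel, Rela and Relb, the I-kappaB genes Nfkbia, Nfkbib and Nfkbie, and Tnfaip3. Rows carrying exactly these symbols were taken from the expression files, which share 23320 gene symbols. A row of its own in both files was found for 9 of the 10 genes, and 8 were above 0 in at least 1 library, against 18742 such genes in the whole series.

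PGCs with intense GFP were sorted from E13.5 mouse embryos that carried the Oct4-deltaPE-GFP transgene, bred from MCH mothers and transgenic fathers, with genital ridges of both sexes dissected. They were infected at MOI 5 with a control lentivirus (Control) or with the lentivirus CSII-EF carrying the Klf9 coding region (Klf9-OE) and were kept for 1 day in culture. Each condition was sequenced as 1 library, so no difference has a replicate check and no test between conditions was possible. The sample labels put bFGF in the medium of both libraries, whereas the paper describes the medium as lacking it. By the paper's description, the medium of both conditions contained leukemia inhibitory factor (LIF). Which of several control vectors was used for the Control library is not given in the sources used here. Expression is given as RPKM, reads per length of transcript scaled to the mapped reads of the library, which allows genes of different length to be compared. Each RPKM is followed by its 95% interval as estimated by Cufflinks, which covers estimation within that library only.

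NF-kappaB proteins are dimers of Rel-family subunits that are held in the cytoplasm by I-kappaB proteins. After stimuli such as tumor necrosis factor or interleukin-1, the I-kappaB kinase complex marks I-kappaB for destruction, and the dimers enter the nucleus and bind kappaB sites. BCL3 is an atypical I-kappaB that acts in the nucleus on dimers of the processed NFKB1 and NFKB2 proteins, and its gene is known to respond to LIF through STAT3 in pluripotent stem cells. Bcl3 and Klf9 were among the genes the study examined in the reprogramming of PGCs. The comparison here addresses whether the transcripts of Bcl3 and its partners differed when Klf9 was over-expressed in this medium.

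The promoters of 8 of the 10 members were found in a RefSeq table (GRCm38.p6, the same assembly as mm10) that holds 250 bases before and 50 bases after each transcript start. Those of Nfkb1 and Relb were not in it. The kappaB consensus was searched on both strands as GGG, a purine, any base, A or T, a pair of pyrimidines and CC. It was found in 6 of the 8 members with a promoter, Rela and Nfkbib being the exceptions, against 1388 of 27025 genes (5.14%) and 573 of the 9204 genes (6.23%) with a promoter in the table and at least 1 RPKM in either library. The windows of the members that are described most closely are shown 5′ to 3′, with matches to the consensus in capitals. Bcl3 (chromosome 7, 19822706 to 19823005, reverse strand) and Tnfaip3 (chromosome 10, 19015361 to 19015660, reverse strand) had the highest ratios of RPKM among the members, and Nfkbia (chromosome 12, 55492598 to 55492897, reverse strand) is the classical feedback target of NF-kappaB.
Bcl3: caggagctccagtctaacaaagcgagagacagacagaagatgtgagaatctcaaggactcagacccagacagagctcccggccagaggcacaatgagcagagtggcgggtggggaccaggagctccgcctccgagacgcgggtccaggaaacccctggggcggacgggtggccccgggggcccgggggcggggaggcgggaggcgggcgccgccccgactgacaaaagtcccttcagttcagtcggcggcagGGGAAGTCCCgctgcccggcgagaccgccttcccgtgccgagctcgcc
Tnfaip3: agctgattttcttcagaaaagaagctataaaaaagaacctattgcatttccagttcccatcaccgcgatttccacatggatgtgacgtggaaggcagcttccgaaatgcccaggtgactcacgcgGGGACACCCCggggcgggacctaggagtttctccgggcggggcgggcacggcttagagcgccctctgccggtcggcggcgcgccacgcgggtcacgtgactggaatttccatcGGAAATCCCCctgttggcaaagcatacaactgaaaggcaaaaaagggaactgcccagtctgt
Nfkbia: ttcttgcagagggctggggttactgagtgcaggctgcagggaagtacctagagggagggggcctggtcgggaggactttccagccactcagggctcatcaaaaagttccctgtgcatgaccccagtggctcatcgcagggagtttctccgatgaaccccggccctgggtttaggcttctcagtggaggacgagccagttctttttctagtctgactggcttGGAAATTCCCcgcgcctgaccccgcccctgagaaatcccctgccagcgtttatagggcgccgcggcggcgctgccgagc

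The Bcl3 match lay on the reverse strand from base 3 to base 12 after the transcript start. The Tnfaip3 window had a match on the forward strand from -125 to -116 and another on the reverse strand from -12 to -3, and the Nfkbia match lay on the reverse strand from -29 to -20. The remaining matches are given as the sites alone, read on the strand that fits the consensus, with their positions from the transcript start. That of Rel lay from -92 to -83, with a second one shifted by a base on the other strand. The site of Nfkbie lay from -106 to -97. Of the sites of Nfkb2, which has 3 windows, the one from -11 to -2 of the first window is shown.
Rel: GGGAAATCCC
Nfkbie: GGGGGATTCC
Nfkb2: GGGGCTTTCC

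Members also held the GC box (GGGCGG, on either strand), the element to which Sp and Klf factors bind, in 7 of the 8 promoters. It occurs in 69.3% of the same 9204 genes, a share near that of the members. The Bcl3 and Tnfaip3 windows held 3 GC boxes each, and that of Nfkbia held 1. These matches describe the letters of the windows, and binding was not measured.

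Klf9 itself was at 2.27 RPKM (1.97 to 2.57) with the control vector and at 80.8 (77.0 to 84.5) with the Klf9 vector. All 10 PGC markers examined exceeded 1 RPKM in both libraries, with Dazl at 351 and 378. Their summed RPKM was 1526 in Control and 1277 in Klf9-OE. The intervals of 8 of the 10 were lower without overlap, among them Pou5f1 (387 to 277) and Nanog (11.7 to 6.30). Of all genes that reached 1 RPKM, 20.2% were lower in this way. Summed RPKM of 7 gonad somatic markers was 19.9 and 25.4, that of 6 endothelial markers 3.46 and 8.69, that of 8 macrophage markers 5.73 and 6.0, and that of the 3 red blood cell markers above 0 was 0.862 and 0.714. In bulk samples fewer cells of a type and less RNA per cell cannot be told apart. Read numbers can be recovered from the width of Cufflinks intervals. Of 2157 Control genes with 1 to 9 recovered reads, 783 had an even number, and of 1793 such genes of Klf9-OE, 1585 did. Counts of intervals are for this reason also given with the Klf9-OE half-widths multiplied by the square root of 2, as if reads had been entered in pairs.

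No member differed 2-fold, the threshold of the study, in either direction, while over the 18742 genes 9.82% reached this threshold upwards in Klf9-OE and 9.43% downwards. Smaller differences went both ways. For 6 of the 8 members the Cufflinks intervals were separate, with Bcl3, Nfkb1 and Tnfaip3 higher in Klf9-OE and Rela, Relb and Nfkbib lower. Over all genes, intervals were higher without overlap for 11.2% and lower for 14.4%, and above a minimum of 1 RPKM, which all 8 members passed, for 14.8% and 20.2%. The median log2 fold change of the 8 members, calculated on log2(RPKM + 0.1), was -0.11, against -0.015 over the 18742 genes. With the Klf9-OE intervals widened, Bcl3 and Nfkb1 were still higher, and Relb and Nfkbib still lower, without overlap, whereas the intervals of Tnfaip3 and Rela overlapped. With the libraries scaled to the same sum of RPKM, Relb alone was lower without overlap. For Bcl3, the reads recovered from the intervals did not show the difference seen in RPKM.

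**Figure D1:**
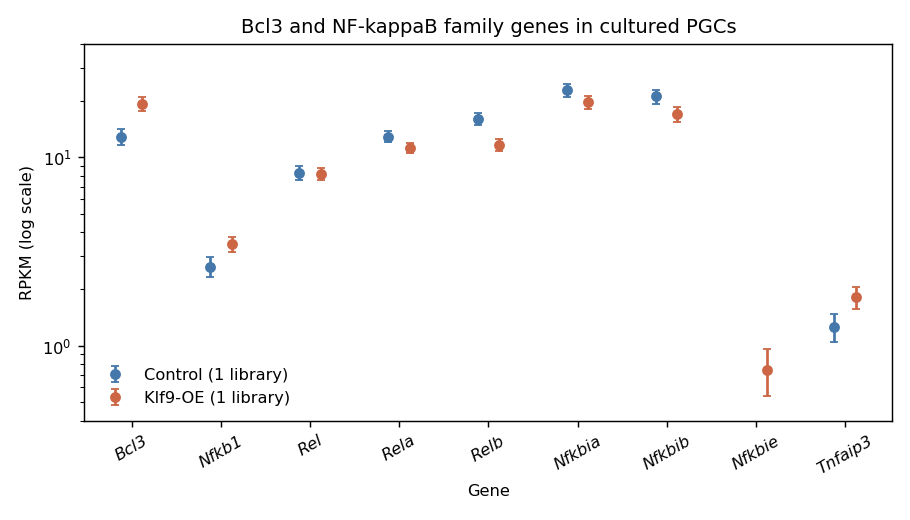
RPKM (log scale) of the members in the Control library and the Klf9-OE library, each point a single library and each bar its Cufflinks 95% interval. Bcl3 went from 12.9 to 19.2 and Relb from 16.0 to 11.6, Rel was at 8.28 and 8.17, Nfkbie has a value of its own in the Klf9-OE library only, and Nfkb2, listed at 0 in both, is not drawn.

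Bcl3 showed the largest ratio of RPKM of the 8 members, but not of recovered reads. Its level was 12.9 RPKM (11.7 to 14.1) in Control and 19.2 RPKM (17.6 to 20.8) in Klf9-OE. The Klf9-OE library was thus the higher, with intervals that did not overlap, also after widening (16.9 to 21.4). The ratio was 1.49 (95% interval 1.31 to 1.69, from the bounds of both libraries) and the log2 fold change 0.57. The reads recovered from the intervals were 472 in Control and 567 in Klf9-OE, a ratio of 1.2 against a depth ratio of 1.21, so relative to depth they had a ratio of 0.993. By this measure the whole difference in RPKM was absent, whereas for the other 7 members the ratio of recovered reads over depth was close to that of RPKM. Recovered reads follow from the width of an interval and are not counted reads, and which measure is nearer to the Bcl3 transcript was not tested. Of the 12565 genes that reached 1 RPKM, 7.65% had a ratio as high or higher. Bcl3 thereby went from the 66.5th to the 74.1st percentile of genes above 0 in their library. It was at the level of Rela in the Control library and was second only to Nfkbia among the members in the Klf9-OE library, where its interval overlapped that of Nfkbia and that of Nfkbib.

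GENCODE M21 places Bcl3 on the reverse strand of chromosome 7 (mm10, 19808462 to 19822770), and its longest coding transcript has 9 exons and 1850 nt, of which 1344 nt encode the protein without the stop codon. The ratio of recovered reads was 0.667 times that expected from the RPKM and the depth of the libraries, while this factor lay between 0.974 and 1.07 for the other members above 0 in both libraries. In the Klf9-OE library, 4 loci without a gene name were assembled inside the Bcl3 gene, and none in the Control library. Over the whole genome the Klf9-OE library held 15127 such loci and the Control library 6482. For 1 of the 4, which overlapped an exon of another Bcl3 transcript, the RPKM was 3.95 with an interval of 0 to 11277. The part that these loci have in the value of Bcl3 was not tested. Exons of an antisense gene, Gm16175, overlap those of Bcl3, and the library kit does not mark strand, so their reads cannot be told apart. The study measured Bcl3 by RT-qPCR with the following primers, which show where in the gene its assay read the transcript. They match exon 6 (19811074 to 19811094) and exon 7 (19809602 to 19809620) of the longest coding transcript and span 100 nt of it, and the forward and reverse primers match 1 and 2 of its 6 annotated transcripts.
Bcl3 forward primer: agaacaacagcctgaacatgg
Bcl3 reverse primer: ccagacgcagaatgcagag

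Among the subunits, Nfkb1 was higher, Relb and Rela were lower and the intervals of Rel overlapped. Nfkb1 encodes the precursor of a subunit that lacks a transactivation domain and, as a homodimer, is a partner of BCL3. It had an RPKM of 2.63 (2.32 to 2.95) in Control and 3.47 (3.14 to 3.79) in Klf9-OE, a ratio of 1.32 (1.13 to 1.53) and a log2 fold change of 0.38. The intervals did not overlap, and 11.5% of the 12565 genes had a ratio as high. Nfkb1 was nevertheless the lowest of the 4 subunits with a value in both libraries.

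Relb encodes the transactivating subunit of the alternative pathway, in which it pairs with the processed form of NFKB2. Its level was 16.0 RPKM (14.8 to 17.1) in Control, the highest of the subunits, and 11.6 (10.8 to 12.5) in Klf9-OE. The Klf9-OE library was 1.37-fold lower (1.23 to 1.52), a log2 fold change of -0.45, and 11.7% of these genes had a ratio as low. In Klf9-OE PGCs its interval overlapped that of Rela, from which it was separate in Control PGCs.

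Rela encodes the main transactivating subunit of the canonical pathway. It had an RPKM of 12.9 (12.1 to 13.8) in Control and 11.2 (10.5 to 11.9) in Klf9-OE. The Klf9-OE library was 1.16-fold lower (1.05 to 1.27), with intervals that were narrowly separate as deposited and overlapped with the widened bounds (10.1 to 12.2). A ratio as low was common, at 25.2% of these genes. Rel, which encodes the transactivating subunit c-Rel, had 8.28 (7.58 to 8.97) and 8.17 (7.54 to 8.80), with intervals that overlapped almost fully. The ratio of 0.987 had an interval of 0.881 to 1.11. In the Control library a locus without a gene name, with an RPKM of 13.3 (7.85 to 18.8), covered the end of the last Rel exon from 23736993 to 23737251 of chromosome 11. In the Klf9-OE library this stretch was part of the Rel locus.

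Nfkb2, which encodes the precursor of the subunit that pairs with RELB, was listed at 0 with bounds of 0 in both libraries, and no level can be given. The file lists it with 3 transcript starts. Of 488 genes with 3 or more starts, 25 (5.12%) were listed at 0 in both libraries, against 4390 of 20705 genes with 1 start (21.2%). These shares do not separate genes without expression from failed estimates, so they cannot tell which applies to Nfkb2. Tug1, a long noncoding RNA expressed in most cells, which has 2 starts, was also listed at 0 in both libraries. An exact 0 of such a gene can be a failed estimate, so it is not read as absence of Nfkb2. The neighbouring gene Psd, on the opposite strand, overlaps the end of Nfkb2 and had an RPKM of 10.1 and 20.7.

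**Figure D2:**
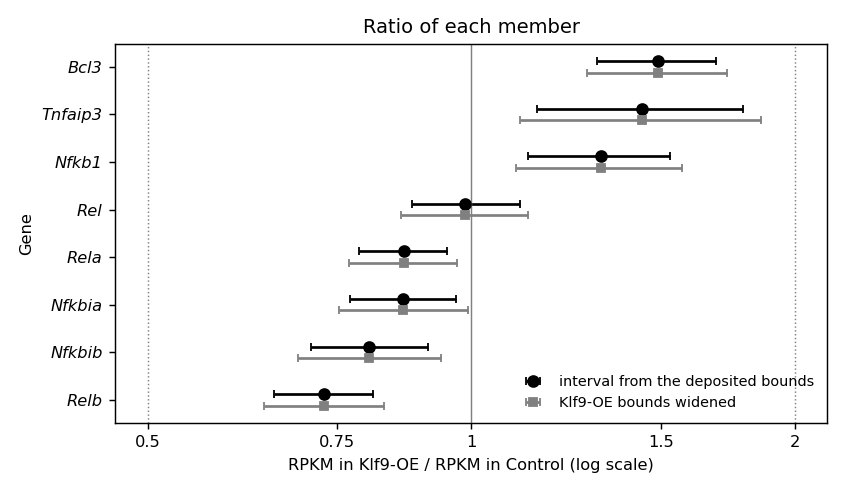
Ratio of RPKM in Klf9-OE to RPKM in Control (log scale) of the 8 members with a value in both libraries, with 95% intervals from the deposited bounds (black) and with the Klf9-OE bounds widened (grey). All ratios lie inside the dotted lines at 0.5 and 2, from 0.729 for Relb to 1.49 for Bcl3, and the interval of Rel alone spans 1 (solid line).

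Of the 3 classical I-kappaB genes, Nfkbib was lower with separate intervals, the intervals of Nfkbia overlapped and Nfkbie had no Control value of its own. Nfkbia encodes I-kappaB-alpha, which NF-kappaB induces and which ends its activity. It was the highest member in both libraries, with an RPKM of 22.7 (20.9 to 24.6) in Control and 19.7 (18.1 to 21.2) in Klf9-OE. The intervals overlapped, and the Klf9-OE library was 1.16-fold lower (1.03 to 1.29). Nfkbib encodes I-kappaB-beta and had 21.1 (19.2 to 22.9) and 16.9 (15.4 to 18.4). These intervals did not overlap, with a value 1.24-fold lower (1.10 to 1.41) in Klf9-OE, but they overlapped once the Klf9-OE library was scaled by 1.04 to the same sum of RPKM. Exons of Sirt2 and Ccer2 on the opposite strand overlap those of Nfkbib, and reads there cannot be told apart by strand.

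Nfkbie, which encodes I-kappaB-epsilon, could not be compared. In the Klf9-OE library it had an RPKM of 0.746 (0.537 to 0.956), the lowest of the members above 0. In the Control library it was merged with its neighbour Slc35b2 into a single locus (chromosome 17, 45555700 to 45567672) with an RPKM of 7.37 (6.58 to 8.16). Slc35b2 alone had 6.99 (6.26 to 7.71) in the Klf9-OE library. The Control value of Nfkbie is therefore not known from these rows.

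Tnfaip3 encodes A20, a ubiquitin-editing enzyme that is induced by NF-kappaB and dampens signaling to the I-kappaB kinase complex. It had an RPKM of 1.26 (1.04 to 1.48) in Control and 1.81 (1.57 to 2.05) in Klf9-OE. The Klf9-OE library was higher, with a ratio of 1.44 (1.15 to 1.79) and a log2 fold change of 0.49, and 8.43% of these genes had a ratio as high. The intervals were separate as deposited and overlapped once the Klf9-OE bounds were widened (1.47 to 2.15). Its value rested on 133 recovered reads in the Control library, the fewest of the members, against 876 for Rela.

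**Figure D3:**
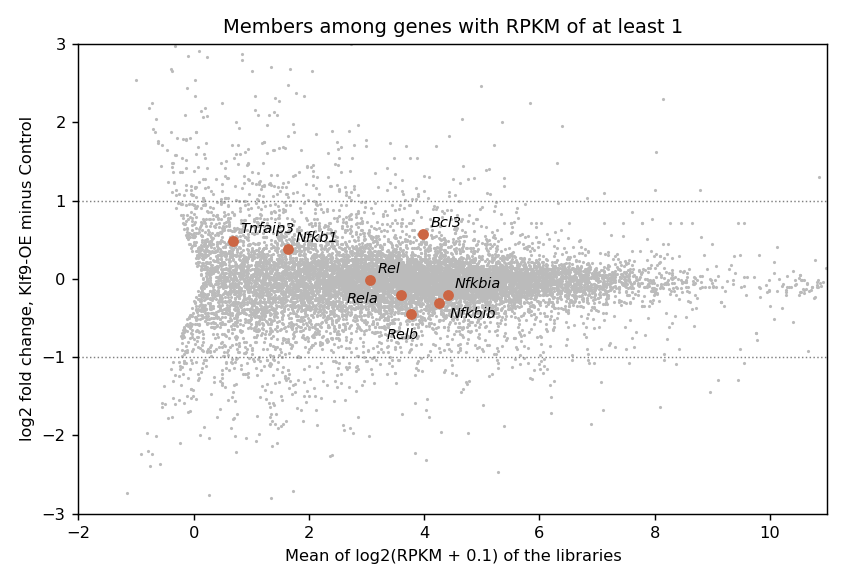
Log2 fold change (Klf9-OE minus Control) against the mean log2(RPKM + 0.1) of the libraries for the 12565 genes that reached 1 RPKM in either library (grey) and the 8 members (orange), with 310 genes outside the axes. The members lie between -0.45 and 0.57, inside the dotted lines that mark 2-fold.

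The members in the Control library were ordered from Nfkbia and Nfkbib, whose intervals overlapped, through Relb, then Rela and Bcl3, which also overlapped, to Rel, Nfkb1 and Tnfaip3. In the Klf9-OE library Nfkbia, Bcl3 and Nfkbib overlapped from neighbour to neighbour, as did Relb and Rela, and the order below them was the same.

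Of the other nuclear I-kappaB genes, Nfkbiz, which encodes the closest relative of BCL3 in function as a nuclear cofactor, was also higher in Klf9-OE. It had an RPKM of 2.11 (1.80 to 2.42) in Control and 3.28 (2.91 to 3.65) in Klf9-OE, a ratio of 1.55. Of 12560 genes that reached 1 RPKM, 5.56% were higher 1.5-fold or more with separate intervals and 6.63% were lower in the same way. The intervals of Nfkbid (8.72 and 9.10) and Nfkbil1 (6.02 and 4.56), named after their values were seen, overlapped.

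Genes that act upstream of the subunits are given by list. Over all genes, 11.2% were higher and 14.4% lower with separate intervals. In the I-kappaB kinase list, 4 of 6 genes had rows of their own in both files, Chuk and Ikbkb being without. Of the 4, 2 were lower with separate intervals, Map3k14 and Ikbkg. All 4 reached 1 RPKM, and of all genes at that level 14.8% were higher and 20.2% lower in this way. Tbk1, the highest in the Control library, had an RPKM of 24.8 (23.2 to 26.3) and 25.5 (24.2 to 26.9). Map3k14, which encodes the kinase NIK of the alternative pathway, was lower in Klf9-OE, with 2.64 (2.33 to 2.96) and 1.65 (1.42 to 1.88), a 1.60-fold difference.

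Among 21 adaptors and upstream kinases above 0, intervals were separate for 3 higher and 5 lower genes, against 11.2% and 14.4% of all genes. Of the 18 that reached 1 RPKM, 3 were higher and 5 lower in this way, against 14.8% and 20.2% of all genes at that level. Without Sharpin, which was listed at 0 in Control, 2 of 20 were higher. Myd88, the adaptor of Toll-like and interleukin-1 receptors, was the highest of this list in the Control library and was lower in Klf9-OE, at 40.9 (39.0 to 42.8) and 26.7 (24.9 to 28.5). Irak2, a kinase-like protein that acts next to MYD88, was higher, at 1.49 (1.21 to 1.78) and 3.92 (3.34 to 4.5), a ratio of 2.62. Rbck1, a subunit of the linear ubiquitin ligase complex, had 12.6 (11.5 to 13.6) and 19.2 (17.8 to 20.6). Sharpin, another subunit of that complex, was listed at 0 in Control and had 10.6 (9.57 to 11.6) in Klf9-OE, so no ratio is given. Birc3, an inhibitor of apoptosis protein and itself a target of NF-kappaB, was lower, at 3.87 (3.33 to 4.40) and 2.57 (2.22 to 2.91).

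Of 14 receptor genes, 2 were higher and 1 was lower with separate intervals, against 11.2% and 14.4% of all genes. Ltbr, the lymphotoxin-beta receptor, which signals through NIK, was the lower one, at 6.37 (5.42 to 7.32) and 4.22 (3.70 to 4.75). Tnfrsf12a, the receptor of the cytokine TWEAK, was the highest in the Control library and was higher still in Klf9-OE, at 14.6 (12.8 to 16.4) and 26.6 (24.3 to 29.0). Among 10 genes of A20, its partners and deubiquitinases, 3 were higher, Tnfaip3 among them, and 2 lower with separate intervals, beside the same shares. Tax1bp1, an adaptor of A20, had an RPKM of 80.3 (76.5 to 84.2) and 90.5 (87.0 to 94.0). Tnip1 and Tnip2, which encode A20-binding inhibitors and are named after their values were seen, were lower, at 40.9 and 31.8 and at 32.6 and 25.5.

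**Figure D4:**
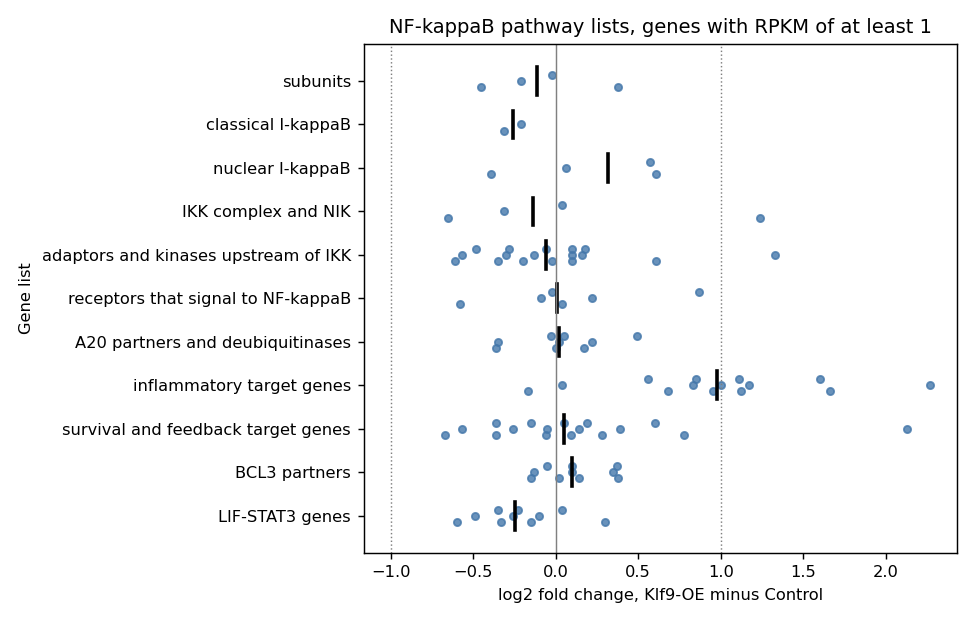
Log2 fold change (Klf9-OE minus Control) of the genes of each list that reached 1 RPKM in either library and were above 0 in both, which leaves out Sharpin, with 1 point a gene and a black bar at the median. Points of most lists lie on both sides of 0, whereas the inflammatory targets lie to the right, apart from Icam1 (0.04) and C3 (-0.17).

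Genes that NF-kappaB is known to induce in inflammation had the highest median of the pathway lists. The lists were chosen with earlier results of these data known, so this ranking is a description only. Of 22 such genes above 0, 10 were higher with separate intervals and none was lower, the ratio was 2 or more for 10 and 0.5 or less for 2 (Cxcl2 and Sele, both below 1 RPKM). Over all genes the shares were 11.2% and 14.4% by intervals and 9.82% and 9.43% by ratio. With a pseudocount of 1 added to both libraries, the number at least 2-fold higher was 5 in place of 10, and none was 2-fold lower. Their median log2 fold change was 0.84, and 0.98 over the 14 that reached 1 RPKM, against -0.026 over all genes at that level. The number with separate intervals was the same, 10, when the Klf9-OE bounds were widened.

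The chemokine genes Cxcl10, Ccl7, Cxcl5, Ccl2 and Cxcl1, which encode attractants of leukocytes, were higher. Cxcl10, which interferons induce as well, had an RPKM of 1.18 (0.739 to 1.61) in Control and 6.05 (5.14 to 6.96) in Klf9-OE, a ratio of 5.14. Ccl7 had 0.977 (0.488 to 1.46) and 3.30 (2.47 to 4.13), and Cxcl5 had 0.850 (0.556 to 1.14) and 2.79 (2.31 to 3.27). Ccl2 went from 8.21 (6.80 to 9.61) to 17.9 (16.0 to 19.8), a ratio of 2.18. Cxcl1 had 6.58 (5.45 to 7.71) and 10.6 (9.31 to 11.9). These chemokine genes were named because they differed 1.5-fold with separate intervals. The other chemokine genes of the list, named after their values were seen, had intervals that overlapped. Ccl5 had 1.22 and 2.55 and Ccl20 had 0.0609 and 0.3, while Cxcl2 was lower in Klf9-OE, at 0.475 and 0.237.

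Other targets on the list were higher as well. Saa3, an acute phase protein and the highest of the list in the Control library, had an RPKM of 14.6 (12.1 to 17.2) and 31.6 (28.2 to 35.0). Mmp9, a matrix protease, had 7.22 (6.60 to 7.84) and 12.9 (12.1 to 13.7), and Csf1, the macrophage growth factor, had 1.80 (1.53 to 2.07) and 3.33 (2.98 to 3.68). Vcam1, an adhesion molecule, had 0.591 (0.427 to 0.755) and 1.45 (1.20 to 1.71). Some targets did not follow. Icam1, another adhesion molecule, had 10.3 and 10.6, C3 had 3.94 and 3.50, and Tnf and Il6 were below 1 in both libraries, these genes being named after their values were seen. The kappaB consensus was found in 6 of the 16 inflammatory targets with a promoter in the table (37.5%), against 5.14% of all genes with one. These were Cxcl1, Cxcl10 and Csf1, which were higher with separate intervals, and Cxcl2, Il6 and Ccl20, whose intervals overlapped. It was not found in those of Saa3 and Ptgs2 (0.415 and 0.831), which were also higher with separate intervals. Cxcl5, Ccl2, Ccl7, Vcam1 and Mmp9, higher as well, had no promoter in the table. The consensus was also found in 7 of 18 survival and feedback targets (38.9%), whose median log2 fold change was 0.07. In the list of A20 and its partners it was found in 5 of 7 (71.4%), with a median of 0.03. The I-kappaB kinase and LIF-STAT3 lists held none.

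**Figure D5:**
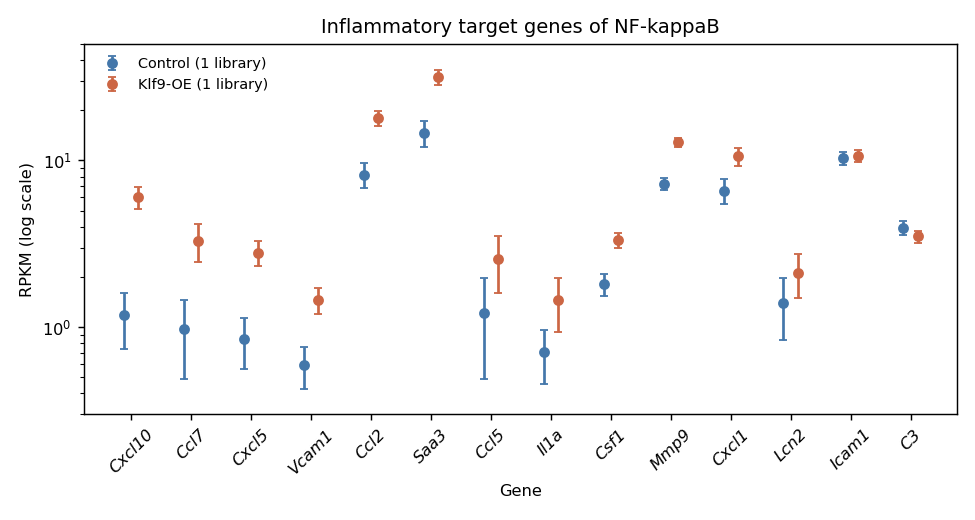
RPKM (log scale) of the 14 inflammatory targets that reached 1 RPKM in either library, ordered by log2 fold change, each point a single library and each bar its Cufflinks 95% interval. Klf9-OE lies above Control without overlap for 9 of them, from Cxcl10 (1.18 and 6.05) to Cxcl1 (6.58 and 10.6), and the intervals of Ccl5, Il1a, Lcn2, Icam1 and C3 overlap.

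Markers of other cell types also differed. Their counts stand beside 11.2% of all genes higher and 14.4% lower with separate intervals. Of 6 endothelial markers, 2 were higher and 1 lower with separate intervals, and of the 4 above 0 in both libraries, 1 was higher and 1 lower, with a summed RPKM of 3.43 and 6.31. Cdh5, an endothelial cadherin, was higher, with an RPKM of 2.0 and 5.09, and Tek was lower, at 0.735 and 0.439. Kdr (0.367 and 0.465) and Tie1 (0.336 and 0.324) had intervals that overlapped, and Emcn was near 0 in both libraries. Eng was listed at 0 in Control, which is not read as absence, and had 2.38 in Klf9-OE. The somatic genes Wt1 (3.41 and 5.64) and Amh (5.99 and 9.29) were higher, whereas Sox9 (2.04 and 1.09) was lower. Of 7 gonad somatic markers, 3 were higher and 1 lower with separate intervals. In the macrophage list, Ptprc (0.0584 and 0.0239) and Adgre1 (0.0836 and 0.0196) were near 0 in both libraries. Cd68, the highest of that list in Control, had 3.69 (2.94 to 4.44) and 4.11 (2.76 to 5.46), with intervals that overlapped. Of 8 macrophage markers, Csf1r was higher with separate intervals, at 0.307 and 1.18, and C1qb was lower, at 0.635 and listed at 0, while C1qa had 0.248 and 0.0678 with intervals that overlapped. The part of other cell types in the values of the inflammatory targets and of the members was not tested.

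Targets known for survival and feedback lay on both sides. Of 20 genes above 0, 6 were higher and 6 were lower with separate intervals, against 11.2% and 14.4% of all genes. Their median log2 fold change was 0.07. Fas, the death receptor, had an RPKM of 1.16 (0.736 to 1.59) and 5.41 (2.33 to 8.49). Plau, the urokinase gene, had 2.85 (2.41 to 3.29) and 4.98 (4.45 to 5.51), and Tnfaip2 had 1.01 (0.805 to 1.22) and 1.59 (1.31 to 1.86). Irf1, an interferon regulatory factor and the highest of the list in Control, was lower, at 67.7 and 52.9. Stat5a was lower too, at 9.65 (8.96 to 10.3) and 6.03 (5.53 to 6.53).

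Proteins that BCL3 is known to bind or act with had mostly overlapping intervals. Of 10 such genes above 0, all of which reached 1 RPKM, 2 were higher with separate intervals (Nfkb1 and Jun) and none was lower. The shares of all genes that reached 1 RPKM were 14.8% and 20.2%. The median log2 fold change was 0.10. Hdac1, a histone deacetylase and the highest in the Control library, had an RPKM of 82.4 (75.2 to 89.6) and 90.7 (88.2 to 93.2). In the LIF-STAT3 list, whose pathway is known to induce Bcl3, 7 of 10 genes were lower and 1, Lifr, was higher with separate intervals, against 20.2% and 14.8% of all genes that reached 1 RPKM, and the median log2 fold change was -0.24. The PGC markers were lower alongside, in 8 of 10 with a median of -0.42, and their part in the values of this list was not tested. Stat3 had 105 (101 to 109) and 94.9 (91.3 to 98.5), Pim1, a kinase gene that STAT3 induces, had 107 (103 to 111) and 85.4 (82.0 to 88.8), and Gbx2 had 7.54 (6.78 to 8.29) and 4.92 (4.37 to 5.48).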

How the data were processed

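RNA-seq of 1 Control and 1 Klf9-OE library was used (51-mer single-end reads, TruSeq v2). The authors mapped reads to mm10 and RefSeq with TopHat2 and Bowtie and deposited Cufflinks FPKM per locus (Cuffdiff is also in the submitters' processing notes) with 95% intervals, called RPKM here. Versions are not given in the sources used here. FPKM of rows with the same symbol was summed and their half-widths combined in quadrature. Genes at least 2-fold apart, and genes with intervals that did not overlap, were counted. Log2 fold changes used a pseudocount of 0.1. Read numbers were recovered as the square of 2 times the FPKM over the upper half-width. The members and gene lists were chosen with earlier results of these data known. Named genes are the members, list genes with an FPKM of at least 1, a 1.5-fold difference and separate intervals, and the highest Control gene of each list. With 1 library per condition no test was made. Alternatives were pseudocounts, rescaling, an FPKM minimum, other folds and widened intervals. The steps were tested on simulated data. Coordinates and exons are from GENCODE M21 (GRCm38). Python 3.11.15, numpy 2.4.6, pandas 2.3.3 and matplotlib 3.10.9 were used.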

Additional observations from a re-analysis of the deposited data

Results flagged for a closer look

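Assembled loci that carry no gene symbol were left out of the comparisons and were examined within 5000 bp of each member. The Klf9-OE library held 14 of them and the Control library 4, against 15127 and 6482 over the whole genome. Those of the Klf9-OE library with a lower bound above 0 and no overlapping locus in the Control library are given here.

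Near Bcl3, 3 loci lay in intron 2, with an RPKM of 2.35 (1.20 to 3.51), 2.37 (1.03 to 3.71) and 1.54 (0.884 to 2.20). The first and second of these lie where the antisense gene Gm16174 is annotated. A locus 807 bp upstream of the Bcl3 gene had 4.59 (2.63 to 6.54). Near Nfkbib, the values were 9.30 (3.29 to 15.3) downstream, 5.93 (2.10 to 9.75) in intron 1, 3.69 (1.31 to 6.07) where both Nfkbib and Sirt2 are annotated, and 2.26 (1.05 to 3.47) upstream within Sirt2. Upstream of Nfkbia, loci at 804 and 2671 bp had 3.76 (1.88 to 5.65) and 3.43 (1.44 to 5.41). A locus 505 bp upstream of Rel had 2.46 (0.873 to 4.05), and a locus within Psd downstream of Nfkb2 had 2.58 (0.915 to 4.25). The rule does not cover loci assembled in the Control library alone. There, a locus with 2.97 (1.87 to 4.07) overlapped an exon of another Nfkb2 transcript, where the opposite-strand gene AC114539.1 is annotated too. A locus downstream of Nfkbie, where Slc35b2 is annotated, had 113 (44.8 to 181) in Control. These differences were not tested.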

How the results depend on the processing

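Across 71 values under the alternatives, 67 stayed within their interval or within 1.5 times the count reported, and none was counted as reversed. All 32 values of single members were among the 67. Their alternatives were only pseudocounts and rescaling of Klf9-OE by 1.02 or 1.04, which are mild changes. Counts of members at least 2-fold apart were 0 throughout, the largest ratio being 1.49. Recovered reads were not among the alternatives, and for Bcl3 their ratio over depth was 0.993 against 1.49 in RPKM. The number of members lower with separate intervals was 3 and became 1, Relb alone, after Klf9-OE was scaled by 1.04 to equal sums, which made the intervals of Rela and Nfkbib overlap. Among inflammatory targets, for which the alternatives were chosen after seeing the data, the number at least 2-fold higher was 10 and became 5 with a pseudocount of 1. The number at least 2-fold lower was 2 and became 0 with that pseudocount or with an RPKM of at least 1. The log2 fold change of Rel, at -0.02, became 0.01 and 0.04 with rescaling to the same upper quartile and sum. This change of sign lay within the interval of Rel and was not counted as a reversal. No paired analysis was possible because each condition had 1 library, and leaving out a library leaves no comparison.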
